A study of Mus musculus with 81 samples.

Results

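The 4 genes described here, D2hgdh, Adhfe1, Idh1 and Idh2, make or remove 2-hydroxyglutarate or make its precursor 2-oxoglutarate. They were taken by symbol from the deposited table, each was measured by 1 probe set, and together they are 4 of 25096 probe sets with 1 gene symbol, or 4 of 21765 genes. Liver RNA was measured on 81 Affymetrix arrays, 1 for each strain and diet, and each array held evenly pooled RNA of about 5 male mice that were 29 weeks old and had been fasted overnight. The 41 chow arrays came from mice fed Harlan 2018, and the 40 high-fat arrays from mice fed Harlan 06414 from week 8 of age. The strains were BXD lines, inbred lines that each carry a fixed mixture of genome from C57BL/6J and DBA/2J, and these parents. Of 42 strains, 39 had both diets (37 BXD lines and the 2 parents), BXD50 had high fat alone, and BXD60 and BXD92a had chow alone. Since a strain's animals were pooled, an array carries no spread between animals.

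2-Hydroxyglutarate exists in a D and an L form. D2hgdh encodes the mitochondrial enzyme that oxidises the D form back to 2-oxoglutarate and hands the electrons to the electron transfer flavoprotein, and its loss in humans causes D-2-hydroxyglutaric aciduria. Adhfe1 encodes hydroxyacid-oxoacid transhydrogenase, which oxidises gamma-hydroxybutyrate while it reduces 2-oxoglutarate to D-2-hydroxyglutarate. Idh1, in the cytosol and peroxisomes, and Idh2, in mitochondria, encode the NADP-dependent isocitrate dehydrogenases, which interconvert isocitrate and 2-oxoglutarate; mutant forms in human tumours make D-2-hydroxyglutarate. 2-Oxoglutarate is in turn the co-substrate of a large family of dioxygenases, some of which D-2-hydroxyglutarate can inhibit.

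The windows around the annotated starts of D2hgdh, Idh1 and Idh2 are shown because the first and the last of these genes were higher on high fat while Idh1 did not pass the diet test. They come from RefSeq (build GRCm38.p6) and run 5′ to 3′ on the gene's strand, from 250 bases before the start to 50 bases after it, at chr1:93824990-93825289 (plus strand), chr1:65186430-65186729 (minus strand) and chr7:80115301-80115600 (minus strand). Capitals mark matches on either strand to the GC box GGGCGG, the CCAAT box CCAAT and the NRF1 core TGCGCA; no 2 matches overlapped.
D2hgdh: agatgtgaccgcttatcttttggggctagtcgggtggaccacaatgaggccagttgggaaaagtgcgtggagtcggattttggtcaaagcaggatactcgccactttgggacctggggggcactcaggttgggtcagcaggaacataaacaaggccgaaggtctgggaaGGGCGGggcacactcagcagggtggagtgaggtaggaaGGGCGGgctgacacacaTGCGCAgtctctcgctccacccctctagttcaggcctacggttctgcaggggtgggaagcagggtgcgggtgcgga
Idh1: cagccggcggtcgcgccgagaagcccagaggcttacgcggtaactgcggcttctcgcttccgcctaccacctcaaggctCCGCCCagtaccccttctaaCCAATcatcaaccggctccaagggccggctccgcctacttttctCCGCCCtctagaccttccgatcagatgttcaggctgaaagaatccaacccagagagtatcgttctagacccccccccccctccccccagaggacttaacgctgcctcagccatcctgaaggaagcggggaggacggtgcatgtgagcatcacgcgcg
Idh2: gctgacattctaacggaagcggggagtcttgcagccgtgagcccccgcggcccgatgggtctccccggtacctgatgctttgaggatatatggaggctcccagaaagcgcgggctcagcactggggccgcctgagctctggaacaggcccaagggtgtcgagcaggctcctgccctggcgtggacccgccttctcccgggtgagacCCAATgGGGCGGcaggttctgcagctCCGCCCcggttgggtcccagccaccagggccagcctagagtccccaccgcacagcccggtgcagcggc

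Each of these windows held 2 GC boxes, a motif found in 35.7% of 32851 mouse promoter windows of the same length. Idh1 and Idh2 each held 1 CCAAT box, which 37.4% of windows had, and D2hgdh held none. D2hgdh held 1 TGCGCA, present in 7.76% of windows, and the other windows shown held none. None held the E box CACGTG (7.15% of windows) or TATAAA (13.6%). The G and C content was 59.7% for D2hgdh, 62.0% for Idh1 and 68.3% for Idh2, against a median of 52.7%. The CpG counts were 13, 23 and 20, against a median of 7. A second annotated Idh1 start, chr1:65179093-65179392 on the minus strand, had 23 CpG, 1 GC box and no CCAAT box. No window was available for Adhfe1, and a link between these motifs and the diet calls was not tested.

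Values are scores on a log-like scale whose base is not stated, scaled so that the 35556 probe sets of each array have mean 8 and SD 2, so differences are given in score units and not as folds. All members lay well above the median of 6.69 of the negative-control probe sets on every array. Means of 6 hepatocyte markers were between 14.3 and 14.7 on all arrays. Means of 18 pancreatic acinar markers were 8.98 on the BXD63 high-fat array and 8.47 on the DBA/2J chow array, against a median of 7.05 and a highest value of 7.31 on the other 79 arrays. Cyp2b9, a cytochrome P450 that was higher on high fat in 36 of 39 strains, was lower in BXD44, BXD61 and BXD63. Cd36, also higher in 36 strains, was lower in the same 3, and Cidea, higher in 37, was lower in BXD44 and BXD61. Some lines had alike profiles over 1000 strain-variable probe sets, with a correlation of 0.827 between BXD80 and BXD103 and of 0.653 between BXD65 and BXD97. The diet, strain and parental tests and the correlations between and within members were also run without sets of these strains. The test of spread, the strain orders, the likeness rankings and the neighbour correlations used all 39 strains alone. In pooled tissue, fewer cells of a type and less RNA per cell cannot be told apart.

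Adhfe1, D2hgdh and Idh2 were higher on high fat and Idh1 did not pass the test. Over the 39 strains with both diets, 3 of 4 members were called higher by limma with strain as a block, where 26.9% of all probe sets were called higher and 53.3% were called in either direction. The order of the differences was Adhfe1, D2hgdh, Idh2 and Idh1. The median absolute diet difference of all probe sets was 0.08 units.

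D2hgdh, which removes D-2-hydroxyglutarate, lay on chow between 9.19 in BXD99 and 10.01 in BXD92a, with a median of 9.58 over 41 arrays. On high fat it lay between 9.44 in BXD99 and 10.04 in BXD65, with a median of 9.73 over 40 arrays. The groups overlapped over most of their range, and BXD99 was lowest on both diets. Within strains it was higher on high fat in 32 of 39, from 9.56 ± 0.18 to 9.74 ± 0.17 (SD, n = 39 strains), by 0.18 ± 0.03 units (SE; limma, adjusted p = 1.22e-07). The difference ran from -0.12 in BXD85 to 0.53 in BXD61, and the 7 strains with lower values were BXD66, BXD71, BXD80, BXD85, BXD87, BXD101 and C57BL/6J. The largest drop was thus smaller in size than the mean rise.

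Adhfe1, which forms D-2-hydroxyglutarate, lay between 11.87 in BXD103 and 12.57 in BXD97 on chow, with a median of 12.2. On high fat it lay between 12.01 in BXD44 and 12.63 in BXD65, with a median of 12.4. The groups overlapped, and on high fat BXD44 and BXD63 (12.02) stood below the others, the next strain up being DBA/2J at 12.18. Adhfe1 was higher on high fat in 36 of 39 strains, from 12.18 ± 0.15 to 12.39 ± 0.15 (SD, n = 39 strains), by 0.21 ± 0.03 units (SE; limma, adjusted p = 5.93e-08). The largest rise was 0.49 in BXD84. The 3 strains with lower values were BXD44 (-0.36), BXD63 (-0.27) and BXD66. BXD44 and BXD63 are also among the 3 strains with lower Cyp2b9, and without BXD44, BXD61 and BXD63 the difference was 0.24 units (adjusted p = 5.11e-11). Without DBA/2J and BXD63, whose arrays carried acinar transcripts, it was 0.22 units (adjusted p = 1.06e-08).

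Idh2, the mitochondrial dehydrogenase, lay between 11.05 in BXD99 and 11.90 in BXD92a on chow, with a median of 11.4. On high fat it lay between 11.07 in BXD87 and 12.02 in BXD98, with a median of 11.5. The ranges were almost the same, so the difference showed within strains rather than between the groups. Idh2 was higher on high fat in 28 of 39 strains, from 11.40 ± 0.18 to 11.51 ± 0.24 (SD, n = 39 strains), by 0.11 ± 0.03 units (SE; limma, adjusted p = 0.00219). Without the strain block the same 78 arrays gave the same difference with an adjusted p of 0.0609, so the call rests on the pairing by strain. The largest rise was 0.61 in BXD98 and the largest drop was -0.26 in BXD73.

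Idh1, the cytosolic and peroxisomal dehydrogenase, lay between 12.49 in BXD43 and 13.29 in BXD68 on chow and between 12.47 in BXD95 and 13.09 in BXD100 on high fat, with medians of 12.86 and 12.87. It was higher in 19 strains, lower in 18 and equal in 2. The mean difference was -0.04 ± 0.04 units (SE; limma, adjusted p = 0.380), with a 95% interval from -0.11 to 0.03. Single strains moved in either direction, from -0.64 in BXD68 to 0.48 in BXD61, and the difference had an SD of 0.23 units over strains. Its SD was the widest of the 4 members, with 0.15 for D2hgdh and 0.18 for Adhfe1 and for Idh2. The upper bound of the interval lay below the mean differences of the other 3 members, although the difference between genes was not itself tested.

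**Figure D1:**
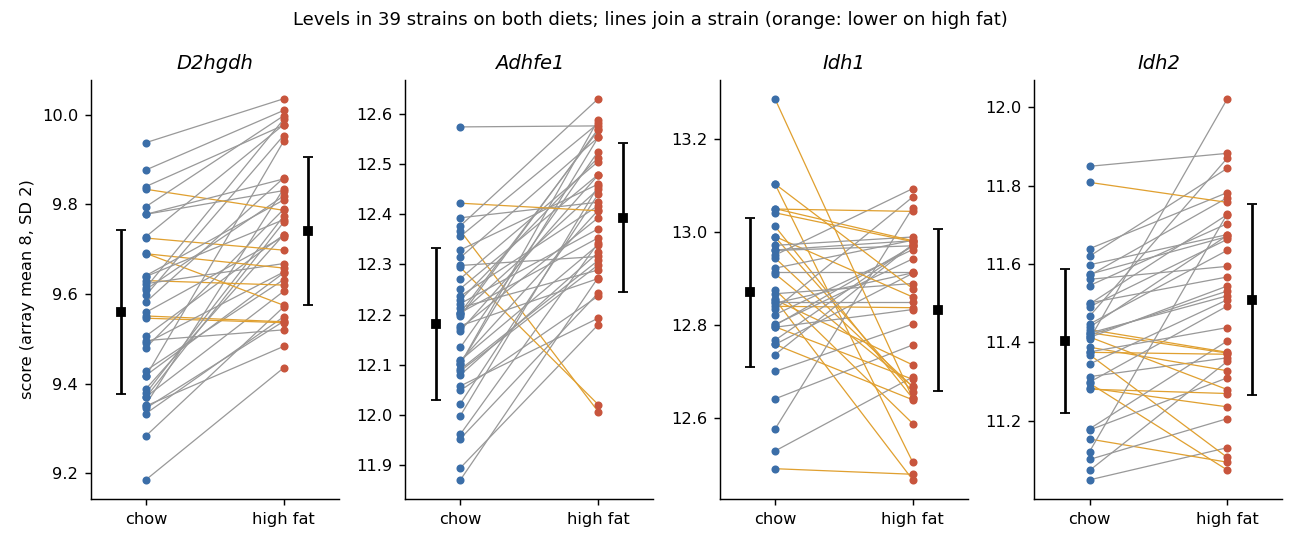
Scores of D2hgdh, Adhfe1, Idh1 and Idh2 on chow and on high fat in the 39 strains with both diets; each line joins the 2 arrays of a strain and orange lines mark strains that were lower on high fat, and black squares with bars give the mean and SD. Adhfe1 was lower in 3 strains, D2hgdh in 7, Idh2 in 11 and Idh1 in 18.

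In the 3 strains with lower Cyp2b9 on high fat, the members did not move alike. D2hgdh was higher by 0.22 in BXD44, 0.53 in BXD61 and 0.31 in BXD63. Idh1 was higher by 0.16, 0.48 and 0.17 in the same order, whereas the Idh2 differences were -0.05, -0.13 and -0.05. Adhfe1 was higher in BXD61 alone. These values were picked out after they were seen and were not tested. Without the 3 strains the limma differences were 0.17 units for D2hgdh (adjusted p = 7.23e-07), 0.12 for Idh2 (adjusted p = 0.000730) and -0.06 for Idh1 (adjusted p = 0.122). Without DBA/2J and BXD63 they were 0.18, 0.11 and -0.05 units, with adjusted p of 3.11e-07, 0.00142 and 0.273. All 4 members had the same diet call in both of these fits.

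D2hgdh and Idh2 passed the strain test, which used the arrays of both diets in 1 fit, and Idh1 and Adhfe1 did not. Strains were not tested within either diet alone. The strain share, the part of the variance around the diet means that lay between strains, was 65.3% for Idh2 and 62.3% for D2hgdh. It was 29.9% for Adhfe1 and 5.46% for Idh1, against a median of 19.9% over all probe sets. The moderated F-test of limma called D2hgdh (adjusted p = 0.000239) and Idh2 (adjusted p = 3.15e-05), 2 of 4 members where 22.6% of all probe sets were called. It did not call Adhfe1 (adjusted p = 0.0985) or Idh1 (adjusted p = 0.429). Adhfe1 passed without BXD44, BXD61 and BXD63 (adjusted p = 0.00638) but not without BXD80, BXD96, BXD97 and BXD103 (adjusted p = 0.380). With 1 pool per strain and diet, strain and any other difference between cohorts cannot be told apart.

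D2hgdh strain means (the mean of the 2 diets) ran from 9.31 in BXD99, 9.42 in BXD51 and 9.43 in BXD90 up to 9.94 in BXD75 and 9.99 in BXD65. The widest gap between neighbouring strains was 0.107 units, and the SE of a difference of 2 strain means was 0.108. Idh2 strain means ran from 11.09 in BXD99 and 11.12 in DBA/2J to 11.78 in BXD44 and 11.87 in BXD65, with a widest gap of 0.083 against an SE of 0.127. BXD99 was thus lowest and BXD65 highest for both genes. Adhfe1 ran from 12.04 in DBA/2J to 12.57 in BXD97, with a widest gap of 0.072 against an SE of 0.126. Idh1 ran from 12.49 in BXD43 to 13.05 in BXD75, with a widest gap of 0.124 against an SE of 0.163. No neighbours in any of these orders differed by more than that SE. Gaps of this size do not decide between a continuous series of strains and separate levels blurred by the spread between pools.

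The level of a strain on chow went with its level on high fat for D2hgdh and Idh2. Over 39 strains Pearson's r was 0.63 for D2hgdh (permutation p = 2e-05, two-sided, adjusted over 4 relations 4e-05) and Spearman's rho was 0.60 (permutation p = 7e-05). For Idh2 r was 0.68 (permutation p = 1e-05, the smallest that 100000 resamples can give, adjusted 4e-05) and rho was 0.75 (permutation p = 1e-05). Leaving out the 2 strains farthest from the chow median gave 0.54 for D2hgdh and 0.64 for Idh2. For Adhfe1 r was 0.30 (permutation p = 0.0647, adjusted 0.0862), rho was 0.38 (permutation p = 0.0189, adjusted 0.0252) and r without the 2 farthest strains was 0.21. Without BXD44, BXD61 and BXD63, the Adhfe1 r was 0.56 (permutation, adjusted p = 0.000533), whereas without BXD80, BXD96, BXD97 and BXD103, taken as close relatives of other lines, it was 0.14 (permutation, adjusted p = 0.573). For Idh1 r was 0.05 (permutation p = 0.741), rho was 0.07 (permutation p = 0.669) and r without the 2 farthest strains was 0.0045. Strains with high D2hgdh or Idh2 on chow thus tended to be high on high fat, and for Idh1 no such tendency was detected.

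**Figure D2:**
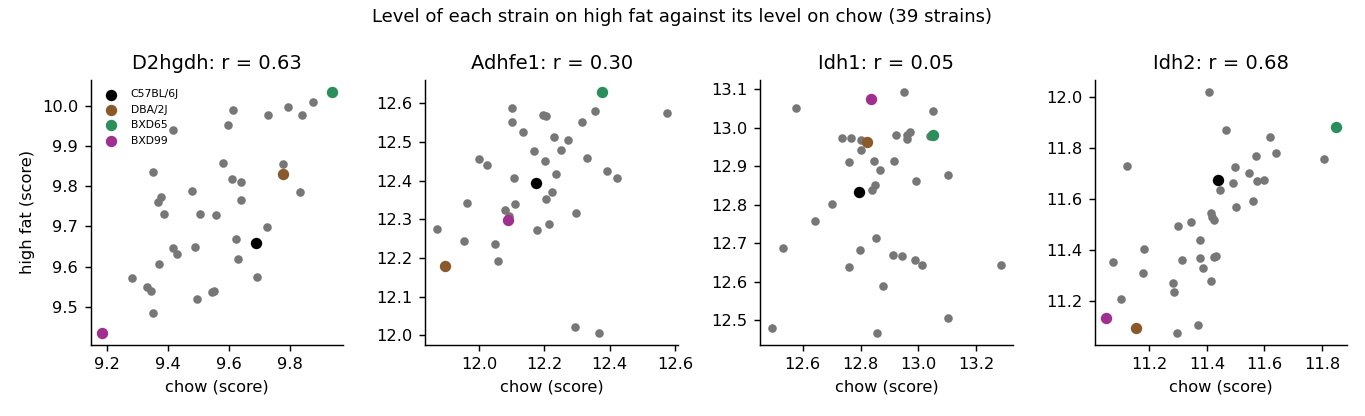
Score of each of 39 strains on high fat against its score on chow, 1 panel per gene, with Pearson's r above each panel. The points follow a line for D2hgdh (r = 0.63) and Idh2 (r = 0.68), are looser for Adhfe1 (r = 0.30) and form a round cloud for Idh1 (r = 0.05).

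The spread between strains was compared between the diets with limma on absolute deviations from each diet's median. Idh2 had a mean deviation of 0.14 on chow and 0.20 on high fat, the largest change of the 4 (adjusted p = 0.847, unadjusted p = 0.00503). D2hgdh had 0.15 and 0.14 (adjusted p = 0.972), Adhfe1 0.12 and 0.12 (adjusted p = 0.999) and Idh1 0.12 and 0.14 (adjusted p = 0.958). So 0 of 4 members passed this test and 1 of 4 had an unadjusted p under 0.05. Of all 25096 probe sets 0.00797% (2 probe sets) were called, and 1321 of the 25096 had an unadjusted p under 0.05.

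By limma 0 of 4 members differed between the parents past the threshold, which 2.82% of all probe sets passed. One of 4, Idh2, had an unadjusted p under 0.05, a level for which no share of all probe sets is given here. Idh2 came nearest: it was 11.44 on chow and 11.67 on high fat in C57BL/6J, and 11.15 and 11.10 in DBA/2J. The parents did not overlap, and the difference was 0.43 ± 0.13 units (SE, n = 2 arrays each; limma, adjusted p = 0.0566). Adhfe1 was also higher in C57BL/6J on each diet, by 0.25 ± 0.13 units (SE; limma, adjusted p = 0.400). D2hgdh differed by -0.13 ± 0.11 units (adjusted p = 0.668) and Idh1 by -0.08 ± 0.16 units (adjusted p = 0.886). Leaving out the DBA/2J chow and BXD63 high-fat arrays gave 0.52 for Idh2 (adjusted p = 0.0920). Single BXD lines lay outside the range of the parental means. For D2hgdh, BXD99 (9.31) lay below C57BL/6J (9.67) and BXD65 (9.99) above DBA/2J (9.80), and for Idh1, BXD43 (12.49) lay below C57BL/6J (12.82) and BXD75 (13.05) above DBA/2J (12.89), the last by less than the SE of a difference of 2 strain means. For Idh2, BXD65 (11.87) lay above C57BL/6J (11.56) and BXD99 (11.09) below DBA/2J (11.12), the latter again within that SE. For Adhfe1, BXD97 (12.57) lay above C57BL/6J (12.28) and no line lay below DBA/2J (12.04). These lines are the extremes of each order, and their differences from the parents were not tested.

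Related lines did not always carry like values. On chow the profile of BXD65 correlated with that of BXD92a (r = 0.858) and less with that of BXD97 (r = 0.496), against a median of -0.04 over all pairs. D2hgdh on chow was 9.94 in BXD65, 10.01 in BXD92a and 9.35 in BXD97, and Idh2 was 11.85, 11.90 and 11.47. Adhfe1 on chow was 12.38, 12.54 and 12.57, above the chow median in each of them. BXD80 and BXD103 had the most alike profiles among the strains with both diets but differed in Adhfe1, at 12.31 and 11.87 on chow and 12.55 and 12.27 on high fat.

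Across strains, 4 of 18 relations between the members passed a permutation test (6 pairs, each on chow, on high fat and for the diet difference, Benjamini-Hochberg over the 18). Adhfe1 and Idh2 were related on high fat, with r of 0.50 (permutation p = 0.00123, adjusted 0.0221) and rho of 0.57 (adjusted 0.0027). BXD44 had the lowest Adhfe1 on high fat with a high Idh2 (11.76), whereas BXD63 was low in both (Idh2 11.37), and leaving out these 2 strains, farthest from the Adhfe1 median, gave r of 0.67. On chow the same genes had r of 0.42 (permutation p = 0.00724, adjusted 0.0434), rho of 0.39 (adjusted 0.0701) and r of 0.44 without the 2 farthest strains. This was the one pair that passed by r on both diets.

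D2hgdh and Idh1 were related on chow, with r of 0.43 (permutation p = 0.00631, adjusted 0.0434), rho of 0.49 (adjusted 0.0172) and r of 0.41 without the 2 farthest strains. On high fat r was -0.10 (permutation p = 0.546, adjusted 0.702) and rho was -0.07. The difference between the diets in this relation was not tested. The diet differences of Idh1 and Idh2 ran opposite, with r of -0.41 (permutation p = 0.0106, adjusted 0.0478), rho of -0.43 (adjusted 0.0386) and -0.49 without the 2 farthest strains. With median-centred arrays this relation did not pass (r = -0.30, permutation, adjusted p = 0.153), and that of the D2hgdh and Idh1 diet differences did (r = 0.42, permutation, adjusted p = 0.0374). In BXD98, for example, Idh2 was higher by 0.61 and Idh1 lower (-0.33). D2hgdh and Adhfe1, which remove and form the same metabolite, were not related by this test, with r of 0.04 on chow and 0.19 on high fat. The number that passed fell to 0 without BXD80, BXD96, BXD97 and BXD103, where the 4 relations had r of 0.39, 0.42, 0.44 and -0.41. It fell to 1 without BXD44, BXD61 and BXD63, where Adhfe1 and Idh2 on high fat had r of 0.67.

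**Figure D3:**
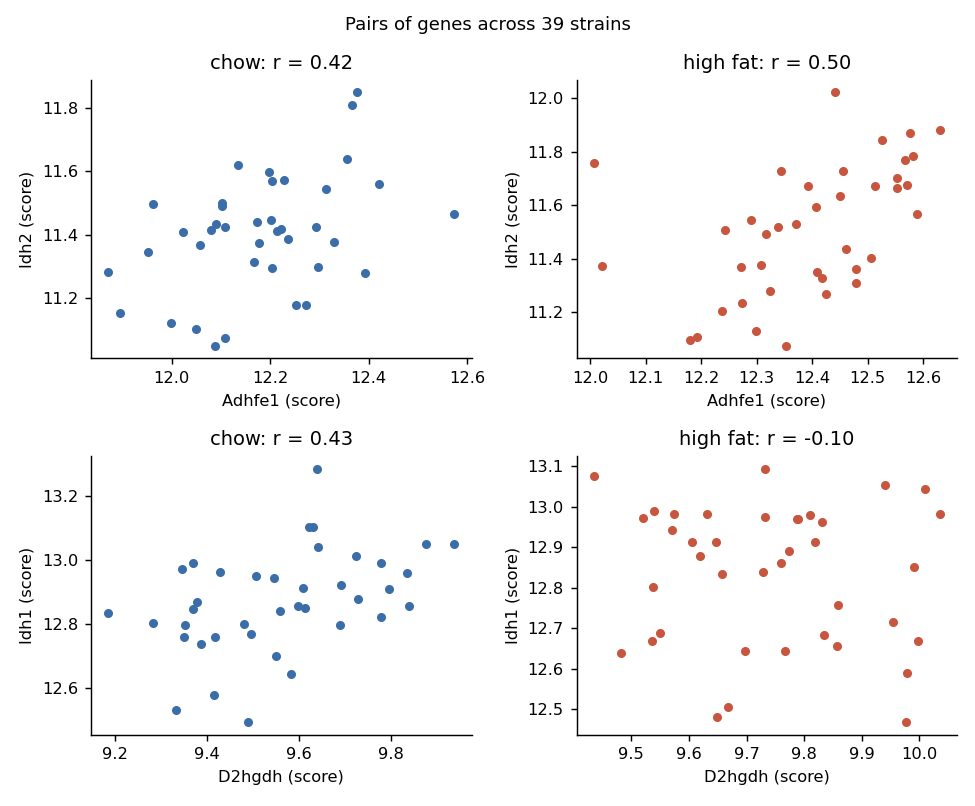
Scores of Idh2 against Adhfe1 (top) and of Idh1 against D2hgdh (bottom) in 39 strains on chow (left) and high fat (right), with Pearson's r above each panel. Adhfe1 and Idh2 rise together on both diets (r = 0.42 and 0.50), with the BXD44 and BXD63 points at the far left on high fat, while D2hgdh and Idh1 have r of 0.43 on chow and -0.10 on high fat, a difference that was not tested.

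The genes whose strain means were most like each member were ranked by Pearson's r over the 39 strains, as a description. For D2hgdh these were Nudt14, a nucleoside diphosphate-sugar hydrolase (r = 0.67), Ppp1r14b (0.64), the transcription factor gene Creb3l2 (0.61), Hmcn1 (0.60) and the deubiquitinase gene Usp42 (0.60). The least like were Scn2a1 (-0.71), Ninj2 (-0.67) and RP23-374O23.1 (-0.67). For Idh2 they were the acyl-CoA thioesterase gene Acot13 (0.74), Kdsr of sphingolipid synthesis (0.72), Nmt2 (0.72), the galactokinase gene Galk1 (0.70) and Ifi27l2b (0.70), and the least like were the complement gene C8b (-0.72), the steroid dehydrogenase gene Hsd3b5 (-0.69) and Susd4 (-0.69). For Adhfe1 they were Themis (0.77), the Wnt receptor gene Fzd4 (0.75), Clstn3 (0.73), the autophagy gene Atg12 (0.70) and Zfp438 (0.69), and at the other end Tyw3 (-0.68), Prdm2 (-0.64) and Tarbp1 (-0.62). For Idh1 they were Rgn (0.65), Echdc1 (0.65), the quinone reductase gene Nqo2 (0.64), Prim2 (0.64) and Aqp8 (0.64), and at the other end the triglyceride lipase gene Pnpla2 (-0.66), Ap3d1 (-0.64) and Dot1l (-0.63). Idh1 and Adhfe1 did not pass the strain test, with strain shares of 5.46% and 29.9%. Likeness to their strain means is thus not shown to be a likeness between strains. Within 1 diet some of these relations were weak. With D2hgdh, Ppp1r14b had r of 0.19 on chow, and on high fat Hmcn1 had 0.14 and Usp42 0.17. Prim2 had r of 0.25 with Idh1 on chow. By contrast, Nudt14 (0.54 on chow and 0.60 on high fat) and Creb3l2 (0.51 and 0.50) held with D2hgdh on either diet. No member was among the 5 most like another. Adhfe1 and Idh2 came nearest with r of 0.50, which ranked Idh2 145 of 25095 probe sets by likeness to Adhfe1. The values of one strain share 2 arrays and a genome, so these points are not independent of relatedness.

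D2hgdh, Adhfe1 and Idh1 lie on chromosome 1 and Idh2 on chromosome 7 in RefSeq. Of the 20 measured genes nearest to each member, 10 on either side, 2 near D2hgdh had an r beyond 0.5 in size with it: Atg4b, an autophagy protease gene (0.52), and D1Ertd622e (0.51). Over all genes 1.30% had so large an r with D2hgdh. Near Idh2 there were also 2, the peroxisome gene Pex11a (0.53) and the myosin chaperone gene Unc45a (0.52), against 1.48% of all genes. Near Adhfe1 and Idh1 there were 0. The strain test called 9 of the 20 neighbours of Idh2, 5 of Idh1, 4 of Adhfe1 and 3 of D2hgdh, against 22.3% of all genes. Neighbours share a stretch of parental genome in each line, and the part of that in these values was not tested.

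The other genes of the pathway were read from lists chosen with earlier results of these data known. Among 11 genes that make or oxidise 2-hydroxyglutarate or accept the electrons, 4 were higher on high fat and 1 lower by limma over 21765 genes, where 27.7% of all genes were called higher and 26.1% lower. The 4 that rose encode dehydrogenases that act on 2-hydroxy or 2-oxo acids: Phgdh of serine synthesis (0.12 ± 0.03 units, adjusted p = 0.00117), the malate dehydrogenase genes Mdh1 (0.11 ± 0.02, adjusted p = 0.000157) and Mdh2 (0.07 ± 0.03, adjusted p = 0.0495), and the D-lactate dehydrogenase gene Ldhd (0.07 ± 0.03, adjusted p = 0.0250). Etfdh, which takes the electrons from the flavoprotein that D2hgdh feeds, fell by 0.13 ± 0.03 units (adjusted p = 0.000472) and was lower in 31 of 39 strains. The other 6 genes of the list, among them those of the flavoprotein itself, were not called. The median difference of the list was -0.00085 units, against 0.0041 over all genes.

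None of 4 measured genes of gamma-hydroxybutyrate and succinic semialdehyde, which share a substrate with Adhfe1, passed the diet test of limma, and their median difference was 0.04 units. Of these, 1 of 4 had an unadjusted p under 0.05, a level for which no share of all genes is given here. One of them, the succinic semialdehyde reductase gene Akr7a5, had a strain share of 70.4%. Among 18 genes that make or use 2-oxoglutarate, 9 were higher and 1 was lower, with a median of 0.06 units. The shares over all genes were 27.7% higher and 26.1% lower. The alanine aminotransferase gene Gpt rose most (0.20 ± 0.04 units, adjusted p = 7.44e-06), and among the others that rose were the NAD-dependent isocitrate dehydrogenase subunit gene Idh3a (0.14 ± 0.03, adjusted p = 0.000454) and Dhtkd1, an oxoadipate dehydrogenase subunit (0.13 ± 0.03, adjusted p = 0.00108). Dlst, a subunit of the 2-oxoglutarate dehydrogenase complex, fell by 0.07 ± 0.02 units (adjusted p = 0.00474). Without the 3 strains of lower Cyp2b9, 2 genes of the first list were lower in place of 1.

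Besides Idh1 and Idh2, 8 genes that make NADPH were counted: 5 were higher, 2 lower and 1 not called, with a median of 0.08 units. Of all genes 27.7% were called higher and 26.1% lower. Pgd of the pentose phosphate pathway rose by 0.18 ± 0.06 units (adjusted p = 0.00977), as did the folate-cycle genes Mthfd1 (0.14 ± 0.02, adjusted p = 6.63e-06) and Aldh1l1 (0.08 ± 0.04, adjusted p = 0.0414) and the malic enzyme gene Me3 (0.11 ± 0.03, adjusted p = 0.00273). The other malic enzyme genes fell, Me1 by 0.23 ± 0.07 units (adjusted p = 0.00360) and Me2 by 0.21 ± 0.04 (adjusted p = 7.85e-06). The transhydrogenase gene Nnt had a strain share of 94.6% and Dhtkd1 one of 89.4%, both far above D2hgdh and Idh2. In the fit without the strain block 2 of these genes and 2 of the 2-hydroxyglutarate list were higher, instead of 5 and 4.

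**Figure D4:**
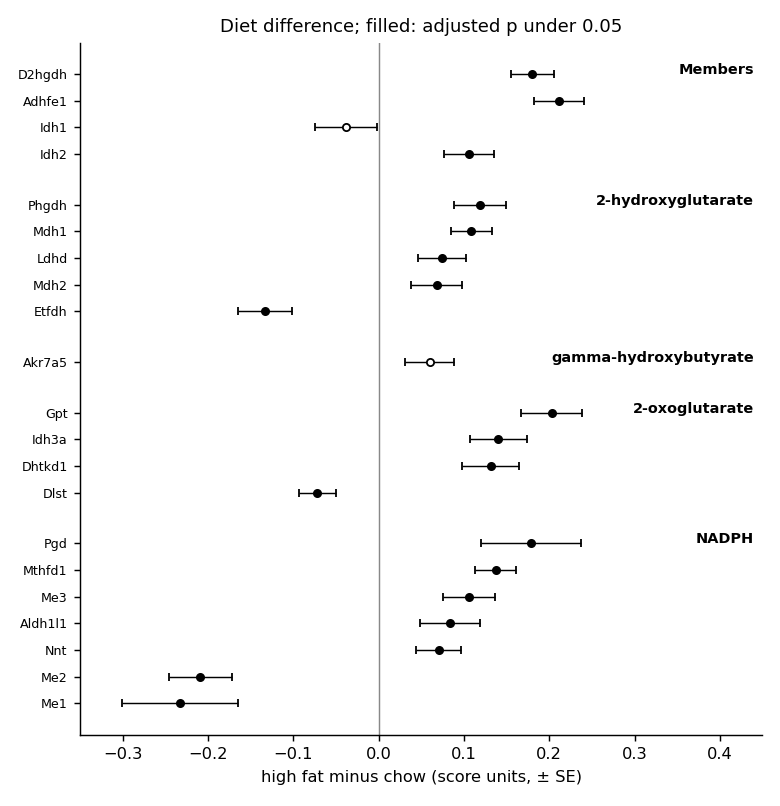
Diet difference (high fat minus chow, score units, with SE) of the 4 members and of the genes of 4 pathway lists that the text names; filled points had an adjusted p under 0.05. Adhfe1 (0.21) and D2hgdh (0.18) lie at the right with Gpt (0.20), while Idh1 (-0.04) lies near 0 and Me1 (-0.23) lies farthest left.

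Of 32 measured dioxygenases that use 2-oxoglutarate, 9 were higher, 9 lower and 14 not called, with a median of -0.01 units. Tet3, which oxidises methylcytosine, fell by 0.27 ± 0.03 units (adjusted p = 2.89e-10) and was lower in 37 of 39 strains, and Tet2 fell by 0.13 ± 0.04 (adjusted p = 0.00263), whereas Tet1 rose by 0.10 ± 0.04 (adjusted p = 0.0222). The histone demethylase gene Kdm3a fell by 0.19 ± 0.04 units (adjusted p = 0.000171) and Kdm2b rose by 0.13 ± 0.03 (adjusted p = 0.000124). The DNA repair gene Alkbh2 fell by 0.18 ± 0.03 units (adjusted p = 1.5e-07) and differed between the parents (-0.66 ± 0.12 units for C57BL/6J minus DBA/2J, adjusted p = 0.000147). Egln1, the prolyl hydroxylase of hypoxia signalling, rose by 0.10 ± 0.03 units (adjusted p = 0.0117) and the lysyl hydroxylase gene Plod1 by 0.09 ± 0.03 (adjusted p = 0.00318). The strain test called 8 of the 32, where 22.3% of all genes were called, and the counts of higher and lower genes are likewise near the background of 27.7% and 26.1%. Strain shares in the top 5% of genes were found in Alkbh2 (81.8%), Plod3 (66.0%), Egln3 (65.1%) and Kdm6b (59.5%), beside 62.3% in D2hgdh and 65.3% in Idh2.

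**Figure D5:**
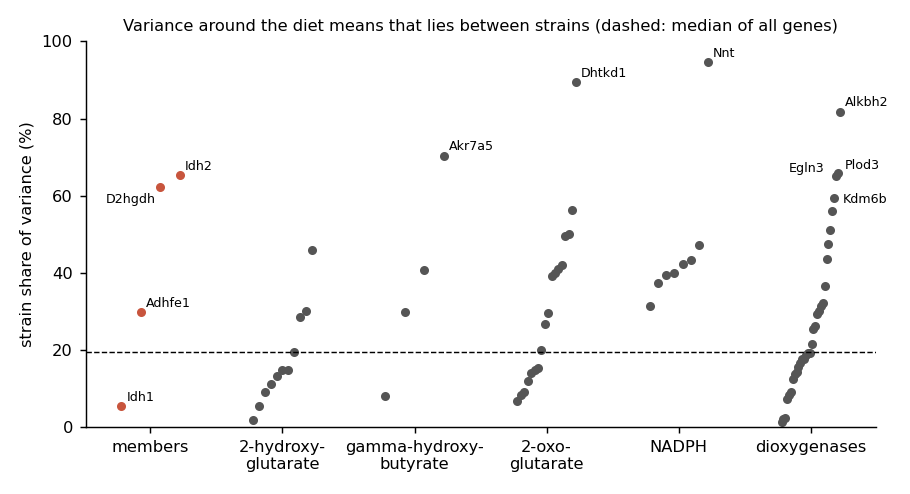
Strain share of the variance around the diet means, in percent, for the 4 members (orange) and the genes of 5 pathway lists (grey), with the median of all genes dashed (19.6%). D2hgdh (62.3%) and Idh2 (65.3%) lie above all 11 genes of the 2-hydroxyglutarate list, whose median was 14.8%, and Idh1 (5.46%) lies below it.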

How the data were processed

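Per the labels' protocols, RNA of about 5 male mice per strain and diet was pooled and run on 1 array. Affymetrix Expression Console is named in the submitters' processing notes, and how probes were summarised and rescaled is not given in the sources used here. For these arrays the authors deposited scores (mean 8, SD 2 in every column) in 2 tables that differed in 0 cells, and each of the 81 columns belonged to 1 sample. Medians of the arrays ranged from 7.66 to 7.81, arrays carry no counting depth, and their number limits the precision.

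Members and lists were chosen with earlier results of these data known. The diet test (high fat minus chow) used limma 3.58.1 under R 4.3.3 and the 78 arrays of 39 strains, with strain as a block and Benjamini-Hochberg adjustment over 25096 probe sets at a threshold of 0.05. The moderated F-test gave the strain p, a contrast the parental one, and absolute deviations the test of spread. The strain share is the between-strain component of variance over its sum with the residual. The strain names pair the arrays: the median correlation between the deviations of a strain's 2 arrays from the diet means was 0.388, and in 38 of 39 strains it exceeded 0.1. The limma p-values of diet, strain and parents rest on the spread left after strain and diet. In it, a strain's own response to diet cannot be told apart from the spread between pools, which may be technical. Correlations used 100000 permutations, two-sided. Pathway counts used the probe set with the highest mean per gene. The named genes are the members, the 5 most and 3 least like genes of each member, and in each list up to 4 called genes in either direction and those with a strain share in the top 5%. The fits were tested on simulated data. The alternatives were other scalings, filters, probe sets, weights and variance models, no block, BXD lines alone, and leaving out arrays or strains, of which 5 lines of alike profile and BXD44, BXD61 and BXD63 were chosen after seeing the data. No proteins are shown, and some genes that the rule names are not reported here.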

Additional observations from a re-analysis of the deposited data

How the results depend on the processing

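Of 499 values under an alternative setting, 463 were on the same side of the threshold or within the spread. The diet calls of Adhfe1, D2hgdh and Idh1 were the same under every alternative run. Without the replicate block, Idh2 gave 0.0937 units on 81 arrays (adjusted p = 0.105) and 0.106 on 78 (adjusted p = 0.0609), and the pathway counts of higher genes were 2 for the 2-hydroxyglutarate list (4 with the block) and 2 for NADPH (5 with it). Leaving out 1 strain gave 0.204 to 0.226 for Adhfe1, 0.171 to 0.188 for D2hgdh, 0.0928 to 0.116 for Idh2 and -0.0521 to -0.0226 for Idh1, with the same calls. The Adhfe1 strain test passed with median-centred arrays (adjusted p = 0.0474), array weights (0.0360) and without BXD44, BXD61 and BXD63 (0.00638), but not without 4 related strains (0.380), without 5 strains of alike profile (0.263) or with BXD lines alone (0.178), and its agreement between diets passed with median-centred arrays (r = 0.366, permutation, adjusted p = 0.0309) and without these 3 strains (r = 0.558). The Idh2 parental difference passed with median-centred arrays (0.449 units, adjusted p = 0.0408), and at 0.432 units without the dimmest probe sets (0.0406), with array weights (0.0125), with a trended robust variance (0.0443) and without the 3 strains (0.0450); leaving out 1 parental array gave 0.347 to 0.516. The number of relations past the threshold was 4, and it was 0 without 4 related strains (BXD80, BXD96, BXD97 and BXD103), 0 without 5 strains of alike profile, 2 without DBA/2J and BXD63 and 1 without BXD44, BXD61 and BXD63. Without these 3 strains 2 genes of the 2-hydroxyglutarate list were lower instead of 1. The number of probe sets called between the parents was 707, 1356 with array weights and 435 without the DBA/2J chow and BXD63 high-fat arrays. The causes were not tested.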
